A study of Mus musculus with 8 samples.

Results

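The broad acetylated domains described here are stretches of 20 kb or more of the mouse genome that carried peaks of histone H3 acetylated at lysine 27 (H3K27ac) in mpkCCD cells. They were found by merging overlapping or touching peaks of 4 peak lists on chromosomes 1 to 19 and X, and by keeping merged regions of at least 20 kb with a peak in each list. Of 45700 merged regions, 16535 had a peak in all 4 lists, and 349 of these were domains. The domains were thus chosen by the peak calls themselves, so their widths and covered shares are given as a description. They spanned 10.5 Mb, or 12.6% of the width of the regions with a peak in all 4 lists, while making up 2.11% of their number.

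The mpkCCD line, here its clone 11, comes from mouse kidney and stands for the epithelium of the cortical collecting duct. The cells were grown to confluence on permeable supports and kept in medium without serum and hormones before treatment. Cells then received 0.1 nM dDAVP, a vasopressin analogue selective for the V2 receptor, or its vehicle for 24 h, with 1 immunoprecipitated library of each per experiment in 2 experiments. Both groups are the same clone, so the values describe 1 clonal line and not collecting ducts in animals. Each list was called from 1 immunoprecipitated library against its own input, so a treatment has n = 2 lists, called replicate 1 and 2 after the experiment.

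H3K27ac is placed by the acetyltransferases CBP and p300 and marks active promoters and enhancers. It usually sits on the nucleosomes beside a single open element, whereas long unbroken stretches are known from genes that define a cell type, where they have been called super-enhancers or stretch enhancers. In collecting duct principal cells, vasopressin acts through the V2 receptor, cyclic AMP and protein kinase A and raises the water channel aquaporin-2.

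The 4 lists differed in how much of the genome they covered, and this bears on every value that follows. In experiment 1 the dDAVP list held 37232 peaks over 99.0 Mb and the vehicle list 39741 peaks over 104 Mb. In experiment 2 they held 20122 peaks over 33.5 Mb and 29594 peaks over 56.9 Mb. Kept tags of the immunoprecipitated libraries numbered 27923780 and 32705755 in experiment 1, and 31676748 and 31283282 in experiment 2. Those of the inputs numbered 38291361 and 35901413, then 30753752 and 35142984. Fragment lengths in the list headers were 255 and 241 bp in experiment 1, and 215 and 210 bp in experiment 2. Why the covered lengths differed was not tested. Values of the 4 lists are given below in this order: dDAVP and vehicle of experiment 1, then dDAVP and vehicle of experiment 2. Ends of all 11 principal cell marker genes, among them Aqp2, Avpr2 and Scnn1a, lay in regions with a peak in all 4 lists. The same held for 7 of 64 marker genes of other kidney, stromal, blood and vessel cells. Of these 7, 4 were among the 14 intercalated cell genes. Over all protein-coding genes the share was 47.8%, and on the longer list of principal cell transport genes used below it was 12 of 16.

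Of the 1005 miRNA hairpins in the RefSeq table, 22 lay in a domain (2.19%). Those printed here were chosen after their positions were seen, because they group by seed, the bases 2 to 8 in capitals that pair with target messages.
mmu-miR-10a-5p: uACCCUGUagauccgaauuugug
mmu-miR-10b-5p: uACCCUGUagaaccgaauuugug
mmu-miR-196a-5p: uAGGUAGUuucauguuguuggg
mmu-miR-196b-5p: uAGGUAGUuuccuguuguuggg
mmu-let-7b-5p: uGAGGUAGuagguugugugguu
mmu-let-7c-5p: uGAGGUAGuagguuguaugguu
mmu-miR-21a-5p: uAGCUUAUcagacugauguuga
Seed identity pairs miR-10a with miR-10b, miR-196a with miR-196b, and let-7b with let-7c. The miR-10 and miR-196 genes lie inside Hox clusters, and the miR-10a and miR-196a-1 hairpins shared the Hoxb domain. Their hairpins were at chr11:96317165-96317274 and chr11:96265164-96265265 (GRCm38.p6, the mm10 build, plus strand). The miR-10b hairpin (chr2:74726070-74726137) was in the Hoxd domain and that of miR-196b (chr6:52230081-52230165) in a Hoxa domain. The hairpins of let-7c-2 and let-7b (chr15:85706603-85706697 and chr15:85707319-85707403) lay near the end of a domain without any protein-coding gene. The miR-21a hairpin (chr11:86584067-86584158, minus strand) was in the domain over Tubd1 and the end of Vmp1. The centres of the miR-10a, miR-10b, miR-196b and miR-21a hairpins were inside a peak in all 4 lists. The centre of miR-196a-1 was in a peak in both lists of experiment 1 and in neither list of experiment 2. The centres of let-7b and let-7c-2 were in a peak of dDAVP replicate 1 alone, although peaks of the other 3 lists covered 51.3 to 97.8% of that domain's width.

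Promoters of 3 domain genes are shown, each 250 bases before to 50 bases after the start (RefSeq, GRCm38.p6), because they differ in the classic promoter motifs while their starts were all inside a peak in 4 of 4 lists. Myh9 (chr15:77842126-77842425, minus strand) encodes the heavy chain of non-muscle myosin IIA, Hoxb4 (chr11:96318017-96318316, plus strand) a Hox transcription factor, and Krt18 (chr15:102027966-102028265, plus strand) a keratin of simple epithelia. Capitals mark matches, on either strand, to any of 5 motifs. The cyclic AMP response element was searched as TGACGTCA, which 2.26% of 21045 windows of protein-coding genes held. For AP-1 the letters were TGANTCA, held by 7.04% of these windows. The other motifs were the CCAAT box by its own letters (38.5%), the GC box as GGGCGG (46.7%) and the TATA box as TATAAA (12.7%).
Myh9: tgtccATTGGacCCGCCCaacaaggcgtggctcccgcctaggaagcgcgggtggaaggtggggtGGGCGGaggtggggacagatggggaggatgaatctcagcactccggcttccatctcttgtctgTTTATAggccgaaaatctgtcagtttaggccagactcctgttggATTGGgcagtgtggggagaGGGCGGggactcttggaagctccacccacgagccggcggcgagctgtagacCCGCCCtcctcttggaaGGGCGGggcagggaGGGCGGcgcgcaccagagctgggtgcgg
Hoxb4: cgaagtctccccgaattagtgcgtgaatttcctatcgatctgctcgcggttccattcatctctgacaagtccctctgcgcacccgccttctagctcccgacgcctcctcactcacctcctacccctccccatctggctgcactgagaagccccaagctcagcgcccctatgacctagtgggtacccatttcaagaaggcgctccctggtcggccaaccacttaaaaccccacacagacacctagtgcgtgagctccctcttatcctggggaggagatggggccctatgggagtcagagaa
Krt18: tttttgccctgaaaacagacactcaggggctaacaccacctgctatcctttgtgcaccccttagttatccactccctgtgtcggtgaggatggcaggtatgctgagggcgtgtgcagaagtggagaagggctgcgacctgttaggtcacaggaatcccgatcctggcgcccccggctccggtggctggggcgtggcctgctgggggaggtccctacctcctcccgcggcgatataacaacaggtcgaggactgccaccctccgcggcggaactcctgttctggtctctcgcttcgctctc
The Myh9 window held 6 GC boxes, 2 CCAAT boxes and 1 TATA box, and the Hoxb4 and Krt18 windows held none of the 5 motifs. A match is a string of letters and no evidence of a bound factor. No comparison of base composition or motifs was drawn for the domain genes as a set, because 79.3% of the 376 genes with an end in a domain were in the promoter table, under the 80% needed.

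Domain widths ran from 20061 to 107645 bp with a median of 26469 bp, and 122 domains were 30 kb or wider, 21 of them 50 kb or wider. Covered share, the percentage of a domain's bases under a peak, had a median of 94.8% (dDAVP) and 96.2% (vehicle) in experiment 1, and of 40.1% and 58.1% in experiment 2. Its range was 57.6 to 100% and 72.1 to 100% in the lists of experiment 1, and 4.60 to 89.5% and 13.9 to 97.0% in those of experiment 2. In 343 domains (98.3%), both lists of experiment 1 covered more than both lists of experiment 2. Part of this comes with the rule, since lists of experiment 1 set most edges of the domains. Averaged over domains and then over lists, the covered share was 67.2 ± 36.6% with dDAVP and 76.9 ± 25.4% with vehicle (SD, n = 2). Within experiments the means were 93.1% (dDAVP) and 94.8% (vehicle) in the first, and 41.4% and 58.9% in the other, so dDAVP was lower in both. With 2 lists against 2, the smallest p that a two-sided exact permutation test can give is 0.33, so no p-value is printed for any comparison of treatments.

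**Figure D1:**
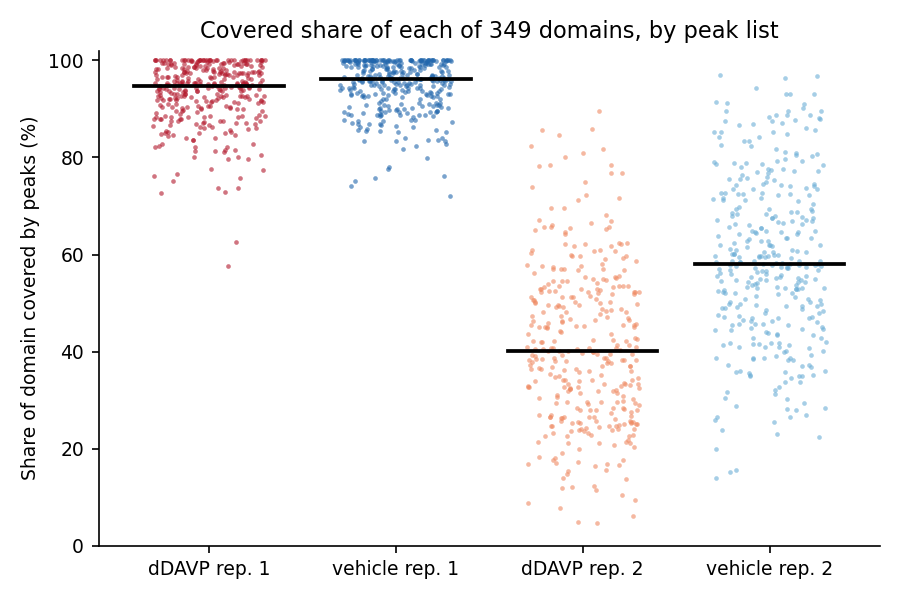
Covered share (percent of a domain's bases under a peak) of each of the 349 domains in the 4 peak lists, 1 point per domain, with a bar at the median. Medians were 94.8 and 96.2% in experiment 1 and 40.1 and 58.1% in experiment 2, and the points of experiment 2 spread far more widely.

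The same stretch was mostly 1 or 2 long peaks in experiment 1 and several short ones in experiment 2. The median number of peaks per domain was 2 and 1 in experiment 1 (dDAVP, vehicle) and 3 and 4 in experiment 2. The longest peak in a domain had a median length of 22319 and 22788 bp in experiment 1, against 5483 and 8774 bp in experiment 2. A single peak of 20 kb or more was present in 222 and 260 domains in experiment 1, and in 7 and 37 in experiment 2. In 41 domains no list had such a peak, and the width of 20 kb was reached by joining shorter peaks.

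Domains were covered most in their middle. Over 50 equal bins, the percentage of domains under a peak was lowest in the outermost bins, at 59.5, 71.1, 3.93 and 13.6% (dDAVP 1, vehicle 1, dDAVP 2, vehicle 2), and reached at most 96.6, 98.9, 51.6 and 71.1% further inside. Part of this shape comes with the rule, since the list that reaches furthest sets an edge: lists of experiment 1 set 283 and 377 of the edges, and those of experiment 2 set 4 and 34. Across all domain bases, 40.9% were covered in all 4 lists and 29.3% in both lists of experiment 1 alone. A further 17.6% were covered in all lists but dDAVP replicate 2, against 1.10% in all but vehicle replicate 2. Bases under both vehicle lists and no dDAVP list came to 68669 bp (0.651%), and bases under both dDAVP lists and no vehicle list to 1697 bp (0.0161%). The bases shared by all 4 lists made up a median of 39.4% of a domain, usually in pieces: the median domain had 3, the longest with a median of 5333 bp.

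**Figure D2:**
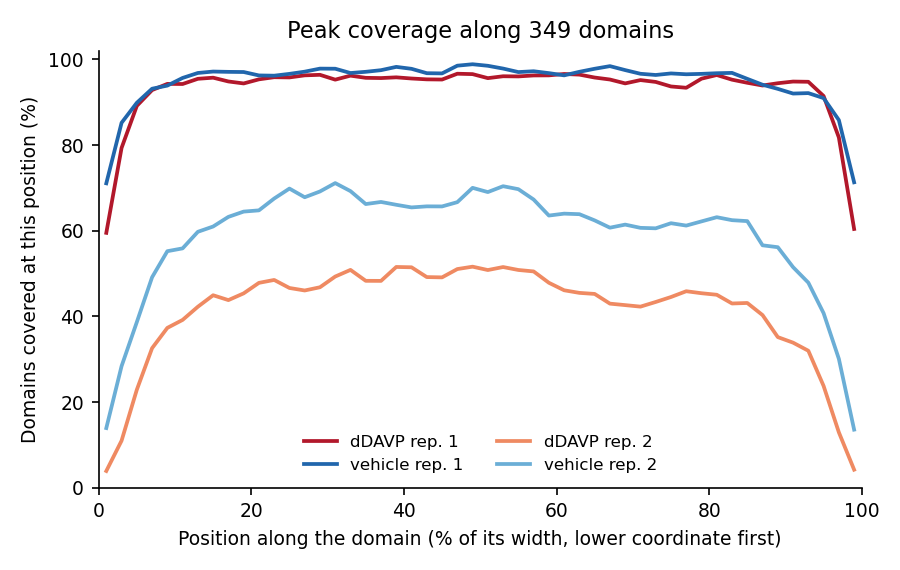
Percentage of the 349 domains under a peak at each of 50 positions along the domain (percent of its width, lower coordinate first), 1 line per peak list. The lines of experiment 1 stay at 59.5% or more at the edges, and those of experiment 2 have their lowest values there, 3.93 and 13.6%, and reach 51.6 and 71.1% further inside.

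Peaks of experiment 2 covered most of the transcription starts in domains. Among 324 annotated starts of 242 protein-coding genes inside domains, 98.5 and 98.8% were under a peak in experiment 1, and 86.4% (dDAVP) and 92.0% (vehicle) in experiment 2. In the same domains, peaks of experiment 2 covered 43.0 and 59.4% of the bases, so starts were under a peak far more often than domain bases at large. In 150 domains with starts of 1 protein-coding gene, the domain reached a median of 6512 bp upstream of the first start and 19053 bp downstream. In 113 of these 150 (75.3%) more of the domain lay downstream, on the side of the gene body, than upstream. Taking the first start of a gene with several favours the downstream side, and narrower regions were not measured in this way.

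Most domains touched genes. An end of a protein-coding gene, counted with 1 kb on either side, lay in 225 domains (64.5%), 98 (28.1%) lay within a gene body and 26 (7.45%) were intergenic. In the 16186 narrower regions with a peak in all 4 lists the same classes held 53.7, 23.3 and 22.9%. Domains are wider by construction, and per 100 kb they had 3.57 genes with an end against 13.8 in narrower regions. Of domain bases, 75.6% lay in bodies of protein-coding genes, against 62.7% in narrower regions. In all, 376 protein-coding genes had an end in a domain, 1.74% of 21631, and 96 domains held ends of more than 1 gene.

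Hox genes, the transcription factors that set position along the body axis, filled the widest domain. It ran over Hoxb9 to Hoxb2 at chr11:96249878-96357522 and was 107645 bp wide with 8 gene ends. Experiment 1 covered 100% (dDAVP) and 99.6% (vehicle) of it, and experiment 2 covered 80.1% and 87.0%. The peak of highest fold enrichment over local background (a value of the authors' peak caller, comparable only within a list) stood at 17.8-, 16.9-, 14.8- and 19.7-fold there.

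The other Hox domains were narrower. A domain of 48119 bp over Hoxd3 to Hoxd10 (chr2:74690924-74739042) was covered at 100, 97.3, 85.7 and 88.8%, in the same order of lists. Hoxa3 to Hoxa11 had a domain of 42062 bp (chr6:52199285-52241346) covered at 97.3, 100, 86.0 and 89.6%. Both were covered at 85.7% or more in each list. Together 23 of 39 Hox genes had an end in a domain, and no gene of the Hoxc cluster did. Only 24 Hox genes had an end in any region with a peak in all 4 lists, so 23 of those 24 (95.8%) were in a domain, against 3.64% of all protein-coding genes with such an end. Hox genes of a cluster share a domain and are not separate observations.

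**Figure D3:**
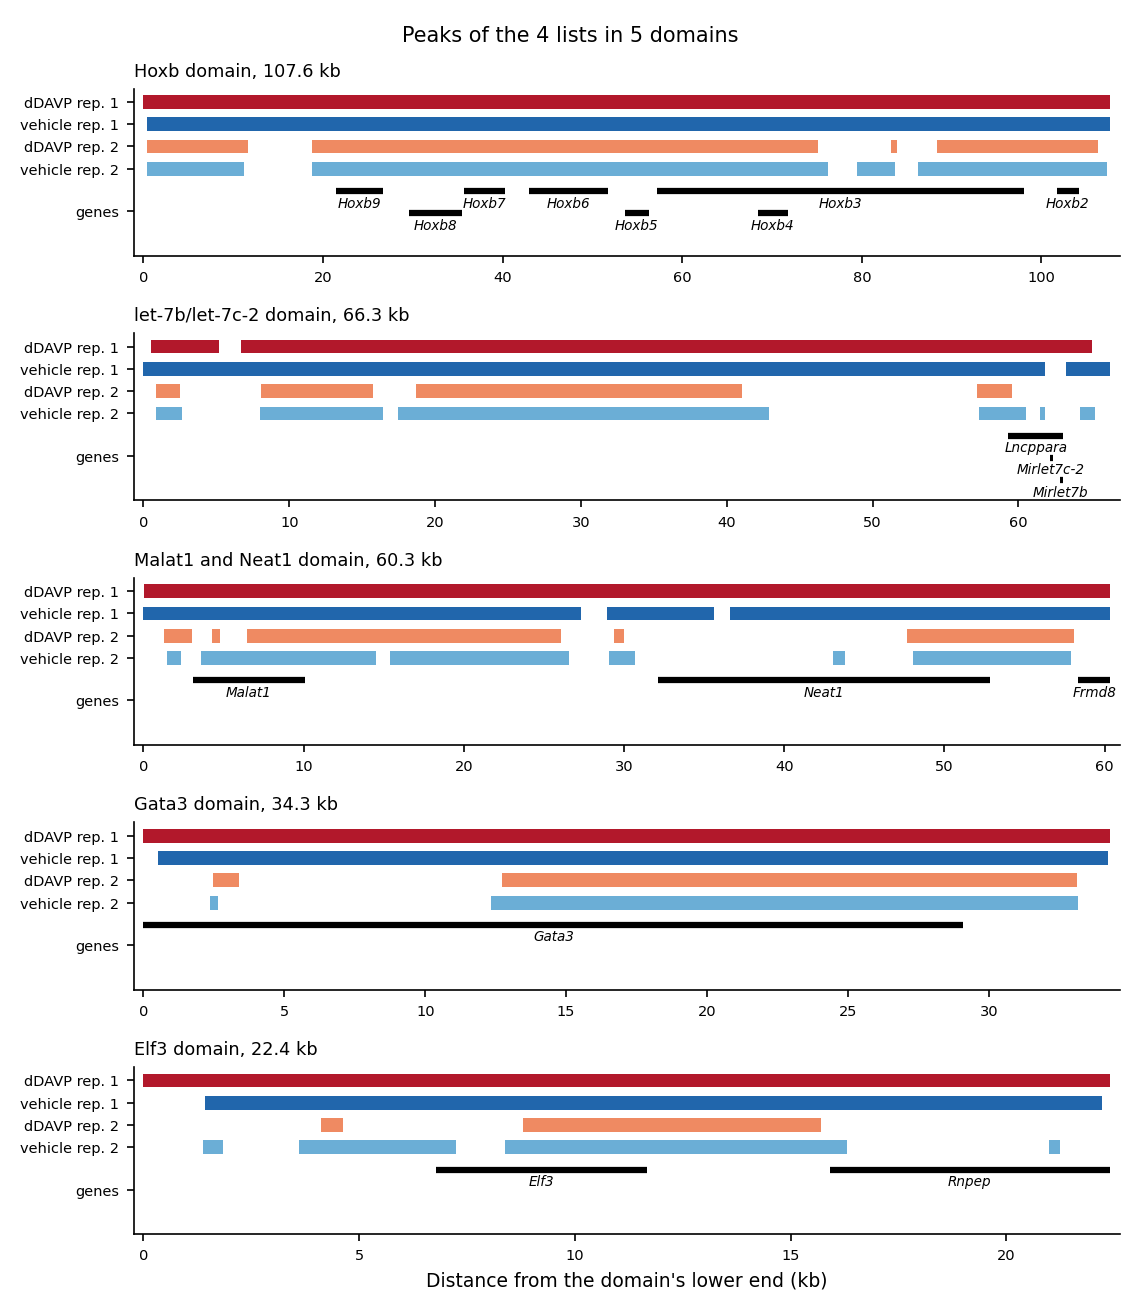
Peaks of the 4 lists (coloured bars, 1 row per list) and genes (black bars) in 5 domains, plotted as distance in kb from the domain's lower end. The Hoxb domain is nearly filled in all 4 lists (80.1% or more), whereas the 22.4 kb Elf3 domain is covered at 33.0 and 54.9% in experiment 2.

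Transcription factor genes of the collecting duct and other epithelia had 6 of 30 members with an end in a domain, with covered shares that differed widely in experiment 2. Gata3, a zinc finger factor needed for the nephric duct, had 34313 bp (chr2:9858846-9893158) covered at 100, 98.3, 62.3 and 61.5%. Pax2, a paired box factor of the same lineage, was covered at 97.3, 99.5, 76.9 and 78.4%. Tfap2a, an AP-2 factor of surface and duct epithelia, had 98.6, 99.2, 78.4 and 87.5%. These 3 domains were covered at 61.5% or more in each list. Those of the ETS factors Ehf (96.2, 96.3, 55.6 and 68.6%) and Elf3 (100, 92.9, 33.0 and 54.9%) and of Cebpb, a basic leucine zipper factor (93.1, 98.7, 37.1 and 57.5%), were covered less in experiment 2.

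Junction and polarity genes had 7 of 30 members with an end in a domain. Cdh1, which encodes E-cadherin of the adherens junction, had 47657 bp covered at 98.4, 99.9, 44.9 and 60.2%. Of the claudins, which set what passes between cells, Cldn4 was covered at 94.5, 95.4, 61.0 and 89.6%, and Cldn8 at 100, 95.5, 61.8 and 60.5%. Jup (plakoglobin), Tjp3 (ZO-3), Pard6b (a polarity complex subunit) and Rab25 (an epithelial trafficking GTPase) ranged from 36.0 to 56.9% in dDAVP replicate 2 and from 45.5 to 68.4% in vehicle replicate 2. The Cldn4 domain also held an end of Mettl27, and the Rab25 domain an end of Mex3a.

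Cytoskeleton and adhesion genes had 6 of 30 members in domains. Krt8 and Krt18, the partner keratins of simple epithelia, shared 49023 bp covered at 91.6, 90.1, 59.3 and 65.5%. Myh9 had 47805 bp covered at 100, 96.6, 68.1 and 75.9%, and Itga3, an integrin that binds laminins, 96.1, 98.5, 65.2 and 87.1%. Ahnak, a very large scaffold protein, had a domain at each end of its gene. The 1 shared with Scgb1a1 was covered at 95.3, 93.6, 82.3 and 84.8%, among the 5 domains with the highest lowest share, although its highest fold was 3.94, 4.34, 4.04 and 4.48. The other Ahnak domain (94.9, 100, 52.4 and 60.1%) and that of Lmna, which encodes nuclear lamins A and C (87.9, 100, 36.9 and 52.2%), were covered less in experiment 2.

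The 3 lists of cyclic AMP signalling, cyclic AMP-responsive and principal cell transport genes had 4 members in domains. Of 30 genes of cyclic AMP and protein kinase A signalling, Rapgef3, which encodes the cyclic AMP sensor Epac1, had an end in one (100, 95.1, 42.3 and 61.2%). It was 1 of 22 with an end in a region with a peak in all 4 lists (4.55%). That share was near the 3.64% of all protein-coding genes. Among 25 immediate early and cyclic AMP-responsive genes, Junb, an AP-1 subunit, had an end in a domain (94.5, 98.0, 69.5 and 76.8%). This domain also held an end of Rnaseh2a. Junb was 1 of 23 counted in the same way (4.35%), also near that share. Of the 16 genes placed on the principal cell transport list, 2 had an end in a domain. These were Hsd11b2, which inactivates glucocorticoids and so guards the mineralocorticoid receptor (98.5, 97.5, 19.1 and 23.8%), and Tmem213 (100, 91.2, 38.1 and 41.5%). Hsd11b2 was thinly covered in experiment 2, and Tmem213 stood below the domain medians there, 40.1% with dDAVP and 58.1% with vehicle. The Tmem213 domain also held an end of Atp6v0a4, a proton pump subunit gene that was not on the intercalated cell list. Whether Tmem213 is a principal cell gene was not tested. Aqp2 had no end in a domain.

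Growth factor, Wnt and Hippo genes had 3 of 30 members in domains. Wnt7b, a Wnt ligand of the collecting duct epithelium, had 60472 bp (chr15:85522684-85583155) covered at 97.1, 100.0, 57.0 and 78.8%. Amotl2, an angiomotin that binds YAP, stood at 95.3, 96.2, 54.2 and 93.2%, and Smad7, which inhibits TGF-beta signalling, at 92.8, 99.8, 56.7 and 82.3%. Hdac7, a class IIa histone deacetylase and the single member of 22 histone acetylation genes with an end in a domain, touched a pair of them, 1 being the Rapgef3 domain. It was 1 of 19 such genes with an end in a region with a peak in all 4 lists (5.26%, beside 3.64% of all protein-coding genes). Malat1 and Neat1, long non-coding RNAs of nuclear speckles and paraspeckles, shared 60338 bp (chr19:5792613-5852950) covered at 99.9, 95.7, 54.5 and 58.4%.

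In 6 of the 17 gene lists no member had an end in a domain: glucocorticoid-responsive genes (0 of 16), intercalated cell (0 of 14), thick limb and distal convoluted tubule (0 of 10), fibroblast (0 of 12), leukocyte and endothelial (0 of 14) and housekeeping genes (0 of 15). Housekeeping genes were not without the mark, since 14 of 15 had an end in a region with a peak in all 4 lists. For glucocorticoid-responsive genes it was 12 of 16. The 0 for intercalated cells holds for the 14 listed genes, which did not include Atp6v0a4 or Tmem213. Of 14 proximal tubule genes, Slc22a12, a urate transporter, had an end in a domain (88.3, 88.8, 29.5 and 49.1%), which also held an end of Nrxn2. In total, 53 list genes had an end in 33 domains. The lists were chosen with earlier results of these data known, and the counts are a description beside the 1.74% of all protein-coding genes.

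**Figure D4:**
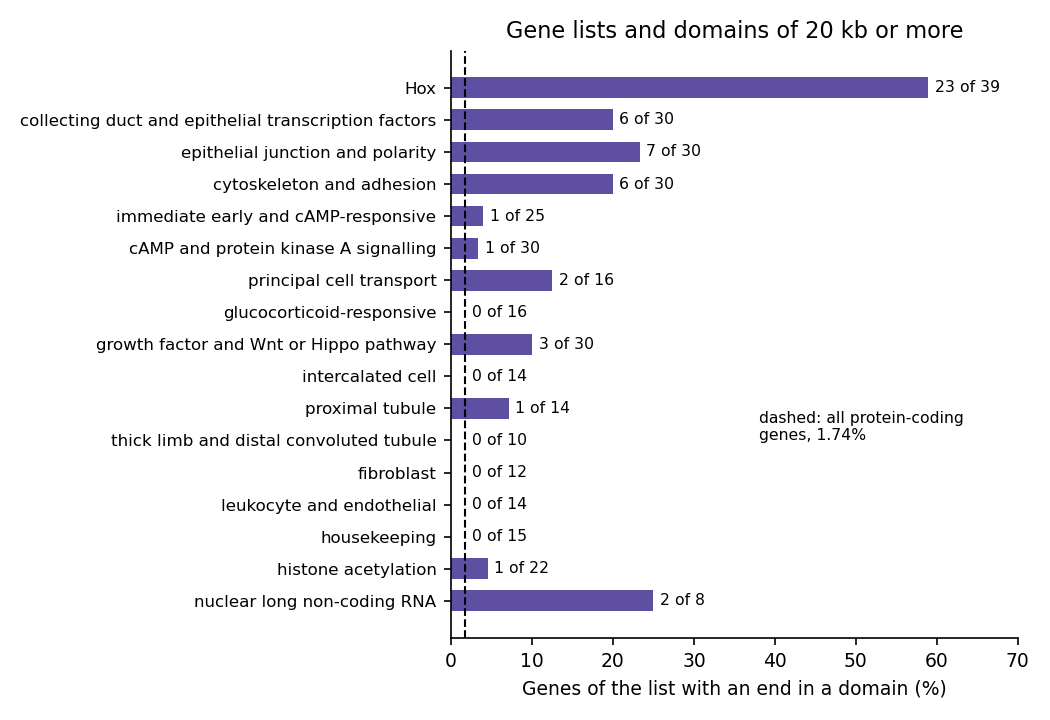
Percentage of the genes in each of 17 lists with an end in a domain, with counts beside the bars and a dashed line at 1.74%, the value for all protein-coding genes. Hox genes stand at 23 of 39 and housekeeping genes at 0 of 15.

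Several of the widest domains lay over genes of no list. The second widest, 82969 bp over Macrod1, Flrt1 and Otub1 (chr19:7125244-7208212), was covered at 97.1, 99.1, 34.5 and 55.0%. Another of 81405 bp lay over Dmac2l, Cdkl1 and Map4k5 (93.7, 96.8, 52.2 and 64.7%), and 76563 bp over Syne2, which encodes nesprin-2 of the nuclear envelope (97.8, 99.3, 38.4 and 55.7%). All 3 were covered less in experiment 2 than the Hoxb domain. Inside single genes lay 70240 bp of Ptpn14, a phosphatase that binds YAP (95.7, 95.0, 39.3 and 58.7%), and 64929 bp of Mylk, the myosin light chain kinase gene (100, 95.5, 36.5 and 57.5%). Zmynd8, a reader of acetylated histones, had 69578 bp (95.7, 96.2, 47.1 and 67.1%), and the domain over Spata20, Epn3, Mycbpap and Rsad1 61101 bp (97.0, 89.7, 38.2 and 57.8%). Irf2bpl, with 62555 bp, was the only 1 of these 8 covered above 70% in each list (97.7, 97.5, 73.9 and 87.6%).

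The let-7b and let-7c-2 domain (chr15:85644450-85710744) was 66295 bp wide, held the long non-coding gene Lncppara, and lay 24166 bp from the nearest protein-coding gene end, of Ppara. It was covered at 95.1, 97.8, 51.3 and 60.6%, with a highest fold of 13.3, 11.4, 12.2 and 15.1. It was among 7 domains with a single peak of 20 kb or more in every list. The others were those of Hoxb, Hoxd, Hoxa3 to Hoxa11 and Gata3, one over 4930432M17Rik (chr3:121624673-121676718) and one near Syne3 (chr12:104892949-104918246). The Syne3 neighbour, 25298 bp wide, had no gene of any type over it and the highest lowest share of all domains, at 87.2, 98.7, 89.5 and 93.0%. Only 7 domains were without any gene, the widest being 25979 bp near Colec10, followed by the Syne3 neighbour and 24004 bp near Plb1.

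At the other end, a domain inside Kcnk5, a potassium channel gene, was covered at 97.5, 90.6, 4.60 and 30.4%. Domains inside Ahdc1 (92.5, 100, 4.78 and 35.6%) and Ccdc85c (94.4, 94.7, 6.10 and 52.8%) were nearly as thin in dDAVP replicate 2. In 105 domains at least 50% of the width was covered in all 4 lists. The most gene-rich domains after Hoxb were Hoxa3 to Hoxa11 with 7 ends, and with 5 each Hoxd, the domain over Mindy1, Anxa9, Cers2 and Setdb1, and the domain over Mta1, Crip2, Crip1 and Tedc1.

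Domains were unevenly spread over chromosomes. Chromosome 19 had 29 (4.42% of its regions with a peak in all 4 lists), chromosome 15 had 30 (4.17%), chromosome 12 had 25 (3.37%) and chromosome 11 had 41 (3.09%). Chromosome 13 had 4 (0.561%), chromosome 18 had 2 (0.495%) and X had 0 of 270 such regions. Some followed each other closely: of 330 neighbouring pairs, 14 were at most 5 kb apart. Rxra, the nuclear receptor that pairs with retinoic acid receptors, carried 3 domains in a row, as did Macrod1 with Flrt1.

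The limit of 20 kb cut through a continuous range of widths. Just inside it were domains near Cd2ap (20061 bp), near Tomm20 (20074 bp) and at Gm46913 within Tbc1d1 (20080 bp). Just outside were regions at Mecom (19982 bp), a zinc finger factor of kidney epithelia, BC034090 (19976 bp) and Clmn (19930 bp). The Mecom region was covered at 94.6, 99.2, 61.1 and 70.7%, within the range of the domains.

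For the question the study set, what dDAVP does to this mark, the covered share was compared within each experiment. In experiment 1 the median difference between dDAVP and vehicle over the domains was -1.14 percentage points (range -42.3 to 27.9), and in experiment 2 it was -16.1 points (range -63.2 to 6.03). With lists trimmed to equal covered bases these medians were -0.70 and -7.70 points. The difference in experiment 2 went with the lists' total length: dDAVP peaks covered 0.590 times as many bases as vehicle peaks over the whole lists of experiment 2 and 0.707 times as many inside domains, against 0.951 and 0.983 in experiment 1. Narrower regions had median differences of -2.18 and -15.9 points. Between experiments, the same treatment differed by a median of 51.8 points (dDAVP) and 37.2 points (vehicle), more than the treatments differed within either. In narrower regions the medians between experiments were 44.8 points (dDAVP) and 27.8 points (vehicle).

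Of the 349 domains, 201 (57.6%) had a lower covered share with dDAVP in both experiments, where over all 16535 regions with a peak in all 4 lists the share was 51.3%. A higher share in both was seen in 7 domains (2.01%), beside 4.78% of all regions. Without dDAVP replicate 2 the direction rests on experiment 1 alone, and 147 domains were higher (142 without vehicle replicate 2). In 139 domains (39.8%, beside 39.9% of all regions) the experiments went opposite ways, higher with dDAVP in experiment 1 and lower in experiment 2. Taken singly, 58.2% of domains were lower in experiment 1 (55.2% of all regions) and 97.4% in experiment 2 (91.3% of all regions). The count of domains lower in both is therefore set mainly by experiment 1, and lies near the background. By place, 127 of 225 domains at gene ends, 57 of 98 in gene bodies and 17 of 26 between genes were lower in both. All regions were not split by place, so these counts have no background beside them and no trend is read from them. A difference of 5 points or more downward in both experiments was found in 107 domains (30.7%), beside 35.9% of all regions.

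**Figure D5:**
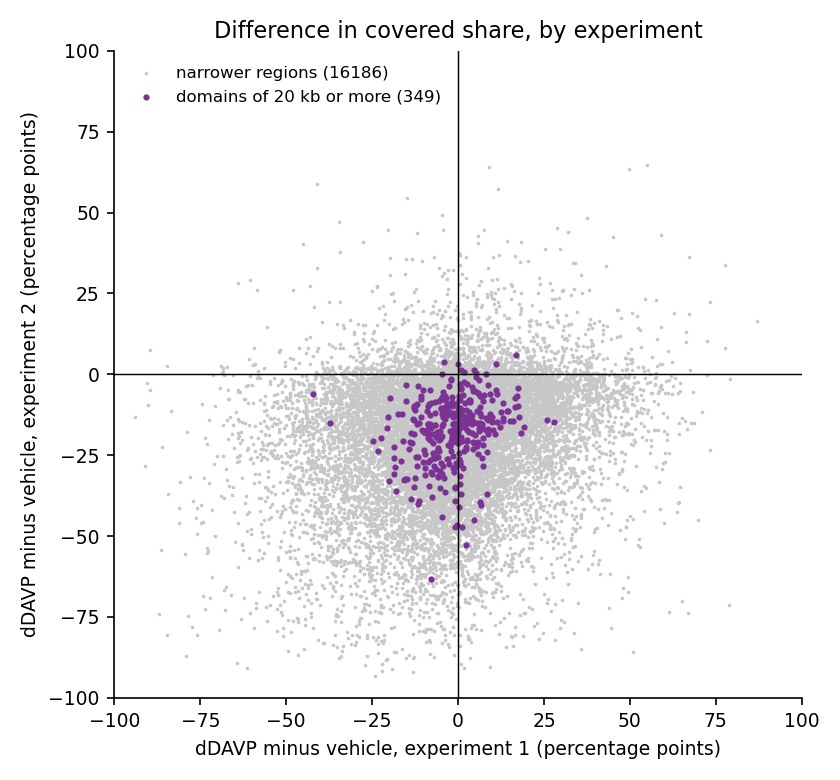
Difference in covered share, dDAVP minus vehicle in percentage points, in experiment 1 (horizontal) and experiment 2 (vertical), for 349 domains (purple) and 16186 narrower regions (grey). Domains lie around -1.14 points in experiment 1 and -16.1 points in experiment 2, inside the cloud of narrower regions.

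Both dDAVP lists were below both vehicle lists in 5 domains (1.43%, beside 11.5% of all regions), and above both in 0 (0.411% of all regions). The largest difference within experiment 2 was at Slc44a3, a choline transporter-like gene, covered at 82.2% and 26.5% with dDAVP and at 90.0% and 89.7% with vehicle (experiments 1 and 2). Rasl11b and Scfd2 shared a domain covered at 72.9% and 60.3% with dDAVP against 90.8% and 96.5%. Inside Kifc3, a kinesin gene, the domain was covered at 88.4% and 50.1% against 100% and 90.2%. In these 3 domains vehicle coverage was 89.7% or more in both experiments, and dDAVP coverage was 26.5 to 60.3% in experiment 2. Itgb6, which encodes a subunit of an epithelial integrin, had 87.5% and 67.0% against 92.9% and 97.0%. The fifth was the Syne3 neighbour. These 5 are named after their values were seen.

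The 5 domains with the largest smaller difference downward were inside Dag1 (76.7% and 32.4% with dDAVP, 100% and 56.1% with vehicle) and Afap1l2 (75.1% and 35.4% against 100% and 56.0%), at Rara, a retinoic acid receptor (75.7% and 23.9% against 95.8% and 56.7%), at Jagn1 and Il17re (77.7% and 32.6% against 100% and 52.3%), and inside Mcph1 (81.3% and 50.2% against 100% and 81.0%). In each, dDAVP replicate 1 lay above vehicle replicate 2, so the treatments overlapped.

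Among the 7 domains with a higher share with dDAVP in both experiments, the largest smaller difference was inside Tiam1, which encodes an activator of the GTPase Rac, at 94.8% and 52.4% with dDAVP and 78.1% and 46.3% with vehicle. Lmtk2, a kinase gene, followed (94.5% and 50.3% against 83.6% and 47.0%). The other 5 differed by 1.32 points or less in experiment 2: Cldn8, Trim8 with Arl3, Gata3, a domain inside Tns3, and Tmem200b with Epb41. Gata3 was covered at 100% and 62.3% with dDAVP and 98.3% and 61.5% with vehicle. None of the 7 had dDAVP above vehicle across experiments.

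The largest difference within experiment 1 was at Scin, an actin-severing protein gene, covered at 57.6% with dDAVP and 99.9% with vehicle in experiment 1, but at 34.9% and 41.0% in experiment 2. Inside Vav2, coverage was 28.0% and 80.8% in experiment 2, but 94.8% and 92.4% in experiment 1. Such differences were thus present in 1 experiment and small or of the other sign in the other. Across the 349 domains the differences of the experiments had Pearson's r of 0.22 and Spearman's rho of 0.26, as a description over domains that share the same 4 libraries.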

How the data were processed

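Chromatin immunoprecipitation sequencing of H3K27ac was analysed from the 4 deposited peak lists, 1 for each treatment in each of 2 experiments. Members, gene lists and comparisons were chosen with earlier results of these data known. Per the file headers, the authors called broad peaks with MACS 2.1.1.20160309 on each immunoprecipitated library against its input, with q-value limits of 0.01 (strong) and 0.1 (broad), so replicates were not pooled. The submitters' processing notes name BWA, SAMtools and the mm10 build. The lists are attached to the records of the inputs, and their headers name the immunoprecipitated libraries. Peak names inside the lists of experiment 2 carry the number 3. The deposited pileup is a coverage signal and was not used in any result. The deposited fold enrichment is a ratio to local background, made by the authors' caller, and was used only within a list. A pair of deposited columns has no readable name, and the values and position of each match −log10 p-values and −log10 q-values.

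Peaks were merged where they overlapped or touched (Python 3.11.15, pandas 2.3.3, numpy 2.4.6, matplotlib 3.10.9), and the covered share of a region is the percentage of its bases under a peak of a list. The merging was tested on simulated peaks. Genes came from a RefSeq table of GRCm38.p6, the same primary build as mm10. A gene end is either end of a protein-coding gene with 1 kb on each side. Named domains are the 12 widest, the 5 with the largest smaller difference in each direction, the 5 with the highest and 3 with the lowest smallest share, 3 on either side of the width limit, the 5 with the most gene ends, the 3 widest without a gene, and those holding list genes. Treatments were compared within experiments because the labels give each pair an experiment number. Over domains, the deviations of the dDAVP and vehicle lists of an experiment from their treatment means had r = 0.735, with 2 pairs only. Depth was 27923780 to 32705755 kept tags per library, and no read counts over domains were used. Whether the experiments were separate cultures is given only by that number, so the spread may be partly technical.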

Additional observations from a re-analysis of the deposited data

Results flagged for a closer look

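Peaks were also present on sequences outside chromosomes 1 to 19 and X, where no domain was sought: 25 (dDAVP) and 15 (vehicle) in experiment 1, and 7 and 15 in experiment 2. Of these, 0 were 20 kb or wider in any list.

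A total of 2 merged regions were 20 kb or wider without a peak in all 4 lists, and both had 0 peaks in dDAVP replicate 2. The first (chr8:124245715-124266341, 20627 bp, 14321 bp from Galnt2) was covered at 92.0, 81.8, 0 and 4.84% (dDAVP and vehicle of experiment 1, then of experiment 2). The other (chr15:37309257-37329366, 20110 bp, 34203 bp from Grhl2) was covered at 94.7, 90.3, 0 and 13.3%.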

How the results depend on the processing

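For 7 results, 90 alternative values were computed, of which 0 reversed and 63 stayed within a set tolerance: 1.5 times for a count, the 95% Wilson interval for the percentage, and for the median differences 10.6 points, the SD of the 2 experiments, which is wide. The median differences stayed below 0, but moved from -1.14 to -0.70 points in experiment 1 and from -16.1 to -7.70 in experiment 2 with lists trimmed to equal covered bases. Against 349 domains, there were 675 at a limit of 15 kb, 122 at 30 kb, 105 with at least 50% covered in every list, and 180 with lists trimmed to equal covered bases (33.5 Mb), from 235 to 351 with 1 list left out. Domains lower with dDAVP in both experiments numbered 370, 76, 58 and 84 in the same order, 107 with a limit of 5 points, and 5 with no replicate block (both dDAVP lists below both vehicle lists). With 1 list left out, only 1 experiment could be compared, and 201 to 264 domains were lower in it. Those higher in both numbered 18, 2, 4 and 26, 16 with lists of equal length, 19 by the longest single peak, 1 with a limit of 5 points, and 0 with no replicate block. With 1 list left out, 7 to 147 domains were higher in the 1 experiment left to compare. At equal covered bases, 46.7% of domains were lower and 14.4% higher in both. Shares over all regions were not computed for the changed widths, the coverage limit or the trimmed lists. The counts lower or higher in those settings thus have no background beside them. Genes with an end in a domain numbered 635, 146, 131 and 250, and 252 to 375 with 1 list left out. The percentage of domains with a gene end was 71.4% with 50% coverage, 70.1% at a fold of at least 4, 76.7% at equal covered bases, and 63.5 to 66.0% with 1 list left out. Widths and limits change the counts by construction; the cause of the other changes was not tested. The design of 2 lists per treatment limits precision, and covered share is a peak call and not a measure of acetylation level.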
